A study of Mus musculus with 20 samples.

Results

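Adenosine-to-inosine RNA editing was described at 3443 listed sites that lie close together in the 3′ untranslated regions (3′ UTRs) of 93 mouse genes. A site belonged to the set if its annotation in the deposited tables was 3UTR, if it had at least 50 reads in each of the 4 wild-type libraries, and if its gene held 20 or more such sites. The set takes 3443 of 48425 listed sites, and 3443 of the 7376 that are annotated 3UTR. A gene held a median of 31 of them, from 20 to 112. The choice rested on annotation and read depth and used no editing level. These sites are labelled members in the plots. The 93 genes list 3944 sites annotated 3UTR in all, of which 133 had no read in the wild-type libraries.

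The cells were mouse embryonic fibroblasts, which are connective-tissue cells grown from embryos, and total RNA was used. The 5 lines are labelled ADAR1_WT, ADAR1_NULL, P150_KO, ADAR2_NULL and STAT2_NULL. In the text the first is called wild type, the second ADAR1-null, the third p150-knockout, and the last pair ADAR2-null and STAT2-null. For every line there were 2 libraries of untreated and 2 of interferon-treated cells, which makes 20 libraries in 10 groups. The labels give no type, dose or duration of interferon and no strain, age or passage. Each genotype is 1 line, no label names ADAR1_WT as the matched control of the others, and so genotype and line cannot be told apart. The labels do not tell whether the libraries of a group were grown apart. The p-values therefore cover the spread between these libraries alone, and that spread may be technical. Expression was not measured, so neither the fibroblast label nor the loss of each targeted gene could be checked. The series speaks of 6 lines, and the other one was not analysed here.

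ADAR enzymes deaminate adenosine in double-stranded RNA, and the resulting inosine is read as guanosine in cDNA. ADAR1 is made as a mainly nuclear p110 form and a longer p150 form, whose promoter responds to interferon and which is found mostly in the cytoplasm. ADAR2 is a separate enzyme, best known for selective editing of neuronal coding transcripts. STAT2 is a transcription factor through which type I interferon receptors activate genes. In 3′ UTRs, repeats inserted in opposite orientation can pair into long duplexes, in which many adenosines are close enough together to be edited on 1 molecule.

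The editing level of a site is its edited reads divided by its reads, given as a percentage, and differences between levels are in percentage points. A site was called edited in a group if its level was at least 5% in both libraries. Of the coverage in each library, 45.7% to 56.8% lay on the 3443 sites. Their median coverage was 359 to 482 reads per library. Coverage of 50 reads was reached by 2765 of the sites in the first untreated ADAR1-null library and by 2930 in the first interferon-treated p150-knockout library, the lowest numbers. Sites of 1 gene share amplicon reads, and the reads carry no molecular identifiers, so sites are not replicates and read counts are not molecule counts.

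Interferon-treated wild-type cells edited the most sites. In them 395 of 3443 sites, 11.5%, were edited, in 62 of the 93 genes. The untreated wild-type cells edited 102 sites, 2.96%, in 39 genes. ADAR2-null cells edited 22 of 3407 covered sites untreated, 0.646%, and 349 of 3443 after interferon, 10.1%. STAT2-null cells edited 77 of 3403 untreated, 2.26%, and 91 of 3443 after interferon, 2.64%. In p150-knockout cells 11 of 3301 sites were edited untreated and 4 of 2909 after interferon. In ADAR1-null cells the counts were 2 of 2645 untreated and 1 of 3422 treated.

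The mean level over the 2324 sites covered in all 20 libraries (in 66 genes) was also highest in treated wild-type cells. In wild-type cells it was 1.15% and 1.12% in the untreated libraries and 3.94% and 4.36% in the treated ones. ADAR2-null libraries gave 0.601% and 0.497% untreated and 3.18% and 3.49% treated. In both of these lines the treated libraries lay well above the untreated ones. STAT2-null libraries gave 0.874% and 0.915% untreated and 0.9% and 0.99% treated, which overlap. The p150-knockout libraries lay at 0.388% and 0.397% untreated and at 0.452% and 0.466% treated. The ADAR1-null libraries lay at 0.253% and 0.325% untreated and at 0.31% and 0.276% treated. With 2 libraries against 2, an exact two-sided permutation test cannot give a p below 0.333, so no test of these means was made.

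**Figure D1:**
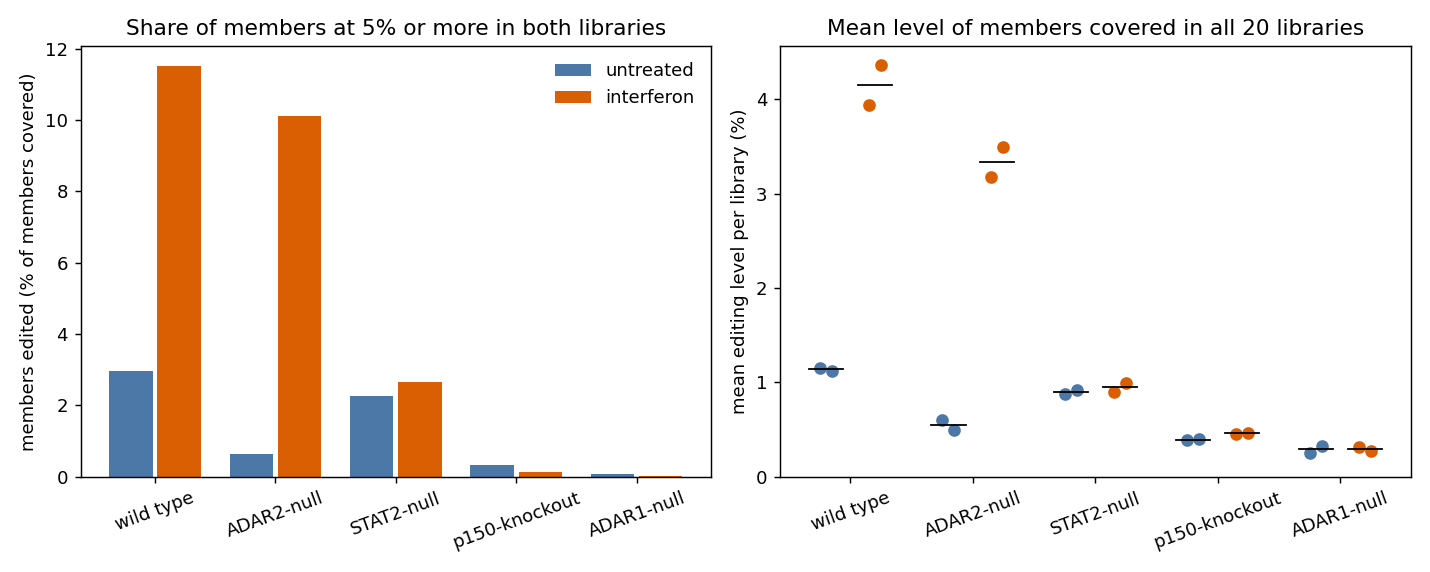
Share of the densely listed 3′ UTR sites edited in each group (left, % of sites covered in both libraries; sites at 5% or more in both) and mean editing level per library over the 2324 sites covered in all 20 libraries (right, %; points are libraries, lines group means). Wild-type and ADAR2-null cells reached 11.5% and 10.1% after interferon, while the STAT2-null groups lay at 2.26% and 2.64%.

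The difference between these means lay mainly at few sites. The median site level was 0% to 0.326% in every library. Of the sites edited in treated wild-type cells, 304 were covered in all 20 libraries. Their mean level was 5.91% in untreated and 25.3% in treated wild-type cells. In ADAR2-null cells it was 1.87% and 19.8%, in STAT2-null cells 4.3% and 4.73%, in p150-knockout cells 0.977% and 0.994%, and in ADAR1-null cells 0.679% and 0.511%. These sites were picked in treated wild-type cells, so the values of that group are a description only. At the sites not edited in treated wild-type cells, the mean went from 0.417% to 0.956% in wild-type cells and from 0.35% to 0.857% in ADAR2-null cells.

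Of the 395 sites edited in treated wild-type cells, 69 had a mean level of 5% to 10%, 124 of 10% to 20%, 134 of 20% to 50% and 68 of 50% or more. Their median was 20.5% and the highest was 99.5%. In treated ADAR2-null cells the median edited level was 17%, and 29 of 349 sites reached 50%. In untreated wild-type cells 4 of 102 did. Of the 395 sites, 91 (23%) were already edited in untreated wild-type cells, 286 (72.4%) were edited in treated ADAR2-null cells and 77 (19.5%) in treated STAT2-null cells. A further 63 sites were edited in treated ADAR2-null and not in treated wild-type cells, and 11 in untreated and not in treated wild-type cells.

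A further 928 sites in 90 genes passed the same depth rule in 3′ UTRs with fewer than 20 of them. Of these 0.97% were edited in untreated and 7.54% in treated wild-type cells, 0.108% and 5.28% in untreated and treated ADAR2-null cells, and 0.862% and 0.754% in untreated and treated STAT2-null cells. In p150-knockout cells 1 of 882 covered sites was edited untreated (0.113%) and 1 of 708 after interferon (0.141%). In ADAR1-null cells it was 1 of 678 untreated (0.147%) and 1 of 927 treated (0.108%). The difference from the densely listed sites was not tested, since sites of a gene are not independent.

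The genes differed widely in the share of their listed sites that were edited. In treated wild-type cells 31 genes, with 959 sites, had no edited site. In 27 genes the share was above 0 and under 10%, in 23 genes it was 10% to under 30%, and in 12 genes it was 30% or more. The last 12 genes held 360 sites and 146 of the 395 edited ones, which is 37%. The median share over the 93 genes was 4.88%, and 13 genes had a single edited site. Treated wild-type cells edited more sites than untreated ones in 59 genes, fewer in 4 and the same number in 2. Of the 62 genes with an edited site in treated wild-type cells, 53 also had one in treated ADAR2-null cells.

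Rpa1, which encodes the large subunit of the single-strand DNA-binding replication protein A, had the highest share. In treated wild-type cells 15 of its 23 sites (65.2%) were edited, against 3 in untreated ones. These 23 sites lie on chromosome 11 between 75114474 and 75114595 of mm9, on the minus strand. The mean level of its sites was 7.01% and 7.86% in the untreated and 22.6% and 21.5% in the treated wild-type libraries, and 15.6% and 16.9% in the treated ADAR2-null ones. All 15 edited sites fell in a stretch of 70 bases, and they differed in how far they moved. The site at 75114517 stood at 93.9% and 90.8% untreated and at 99% and 100% treated. The site at 75114512 stood at 1.02% and 0.917% untreated and at 51.5% and 51.6% treated. The site at 75114502 stood at 28.6% and 30.3% untreated and at 37.4% and 36.1% treated. So a site that was nearly fully edited without interferon had close neighbours that were edited little or in part.

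Trove2, which encodes the RNA-binding Ro autoantigen, had 12 edited sites of 20 (60%) in treated wild-type cells and 2 untreated. The sites lie on chromosome 1 between 145602420 and 145602523. In its most edited site, at 145602508, the untreated wild-type libraries differed strongly, with 74.4% and 51.6%. The treated ones had 71.9% and 88.3%, so the 2 groups overlapped at this site. At the site 5 bases to the 5′ side, 145602513, they did not overlap, with 5.48% and 5.98% untreated and 49.3% and 63.8% treated. Both sites were also high in treated ADAR2-null cells, at 70.9% and 77.5% for the first and 48.4% and 53.4% for the other.

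Slfn5, a Schlafen gene induced by interferon, went from 0 edited sites untreated to 13 of 28 (46.4%) in treated wild-type cells. Its sites lie on chromosome 11 between 82776068 and 82776218, and the edited ones lie in the first 96 of those 151 bases, among others that were not edited. The mean level of its sites was 0.188% and 0.252% untreated and 19.1% and 18.4% treated. In treated ADAR2-null cells 8 sites were edited and the mean was 7.69% and 9.42%, below both treated wild-type libraries. The site at 82776157 had no edited read in 605 reads of untreated wild-type cells, which allows a level of up to 0.496%. It stood at 66.1% and 75.7% in treated wild-type cells and at 24% and 37.4% in treated ADAR2-null cells. In treated STAT2-null cells it stood at 0% and 0.544%. The Slfn5 amplicon lacked the depth for a count in both p150-knockout groups and in untreated ADAR1-null cells.

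Gnl3l, which encodes a nucleolar GTP-binding protein, had as many edited sites in 2 lines. It had 12 edited sites of 31 (38.7%) in treated wild-type cells and 12 in treated ADAR2-null cells, against 4 and 0 untreated. Its sites lie on chromosome X between 147419967 and 147420103. The site at 147420066 stood at 7.6% and 11.8% in untreated and at 64.8% and 66.3% in treated wild-type cells. In ADAR2-null cells it stood at 2.61% and 0.261% untreated and at 73% and 72.1% treated. In STAT2-null cells it was 6.86% and 9.39% untreated and 10.3% and 11.8% treated. In the p150-knockout and ADAR1-null libraries it lay at or below 0.134%.

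Mad2l1, which encodes the spindle-checkpoint protein Mad2, was the gene with the most edited sites in treated wild-type cells, 24 of 62 (38.7%). In untreated wild-type cells 13 were edited, in treated ADAR2-null cells 28, and in both STAT2-null groups 16. Its mean level was 3.81% and 3.3% in untreated wild-type libraries, and the STAT2-null libraries were higher, at 4.78% and 4.8% untreated and 5.02% and 5.27% treated. The site at 66490075 on chromosome 6 stood at 29.9% and 33.3% in untreated and at 63.1% and 79.2% in treated wild-type cells. In STAT2-null cells it stood at 45.5% in both untreated libraries and at 47% and 50.3% in the treated ones, above untreated wild-type cells and below treated ones.

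Among the other genes with high shares, Car5b, a mitochondrial carbonic anhydrase gene, had 11 of 26 sites edited in treated wild-type cells and 10 in treated ADAR2-null cells. Rragd, which encodes a Rag GTPase of the mTORC1 pathway, had 9 of 23 and 2. Nt5dc3, a gene of the 5′-nucleotidase domain family, had 8 of 21 and 4. Ankrd28, which encodes a regulatory subunit of protein phosphatase 6, had 13 of 39 in each of these groups. Iws1, a transcription elongation factor gene, had 10 of 32 and 6. Exoc8, which encodes a subunit of the exocyst, had 7 of 23 and 8. Rragd and Nt5dc3 thus had fewer edited sites in treated ADAR2-null cells, while Ankrd28 and Exoc8 had as many or more.

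The 12 genes with the most listed sites ranged in share from 0% in Rsad1 to 38.7% in Mad2l1, described above. Ncl, which encodes nucleolin, had 112 listed sites and 11 edited ones in treated wild-type cells, a share of 9.82%. 4933407H18Rik had 93 and 7, and Bri3bp had 87 and 16. Dnajc1, an endoplasmic reticulum co-chaperone gene, had 75 and 14, and Fbxl17, an F-box gene for a ubiquitin ligase subunit, had 74 and 15. Ccdc157 had 72 and 6. Gla, the alpha-galactosidase A gene, had 71 and 18 (25.4%), 2900026A02Rik had 68 and 16, and uc007lnx.2 had 68 and 3. Zbtb4, which encodes a zinc-finger protein that binds methylated DNA, had 59 and 3. At the other end, Rsad1, Commd2, uc007noe.1, uc008lxo.1, Glt8d2 and uc009ccp.1 were the genes with the most listed sites among the 31 without an edited one, with 58, 57, 54, 43, 41 and 40. Rsad1 and Commd2 had 2 edited sites each in treated ADAR2-null cells. Genes with long lists of known sites were thus found both with and without edited ones.

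**Figure D2:**
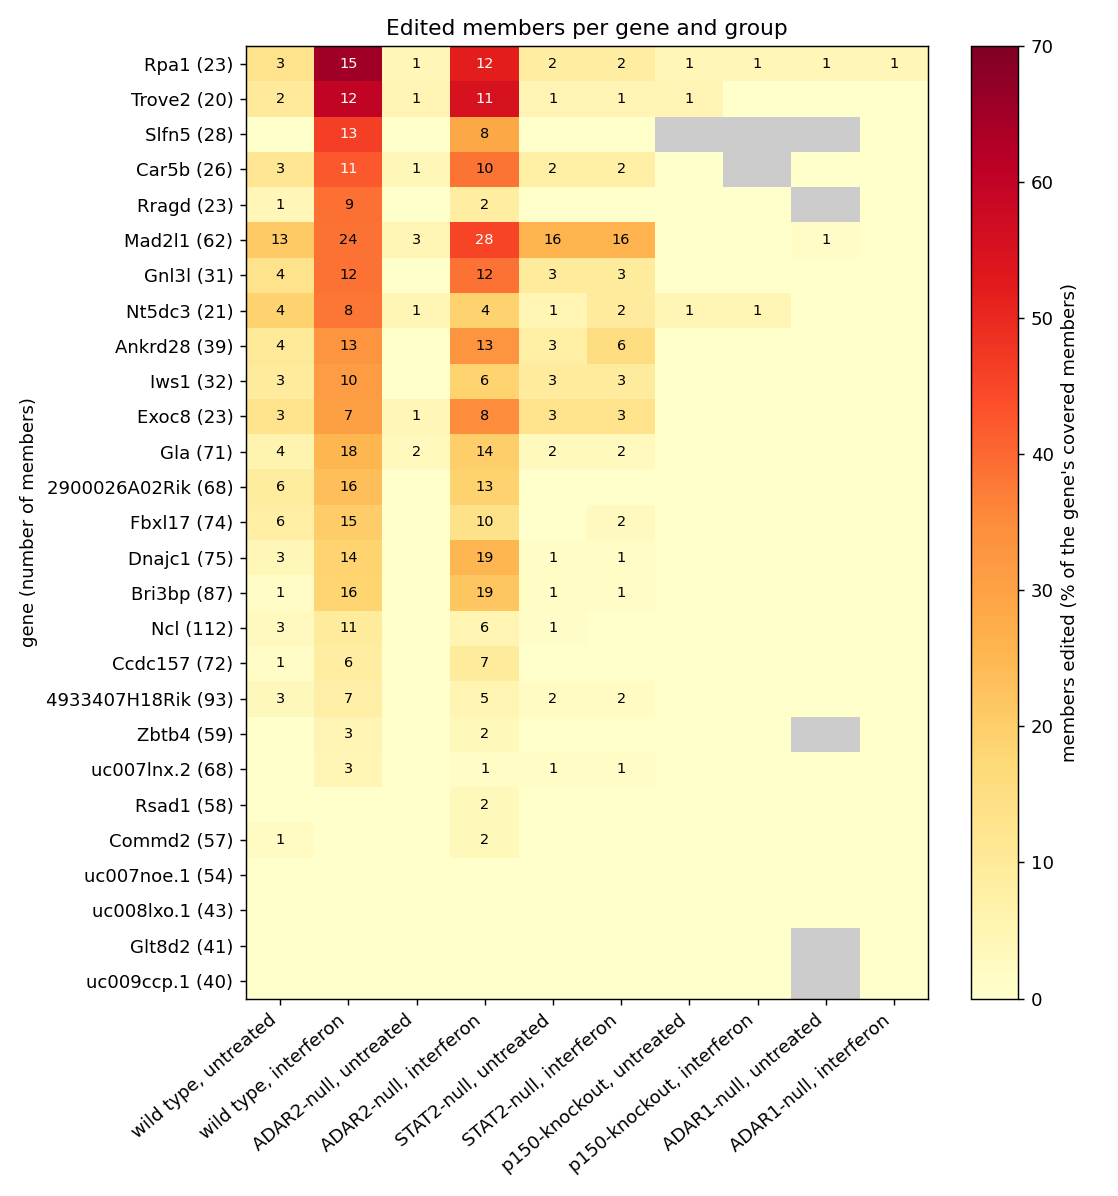
Edited sites in 27 genes (rows, with the number of listed sites in brackets) and the 10 groups (columns); the colour gives the share of the gene's covered sites that were edited (%), the printed number their count, and grey a group without enough depth. Rpa1 leads with 15 of 23 sites in treated wild-type cells, and the 2 treated columns of wild-type and ADAR2-null cells hold most of the counts.

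The listed sites were packed closely. Neighbouring listed sites of a gene lay a median of 3 bases apart (quartiles 2 and 7), 86.1% of 3350 neighbour pairs lay within 10 bases, and 21.6% were directly adjoining. Sites with no gap over 200 bases were joined into runs, which gave 120 runs with a median span of 158 bases (38 to 448) and a median of 26 sites. The density was a median of 17.1 listed sites per 100 bases, from 2.73 in a run of Bri3bp to 31.6 in a run of Nup155. Only amplified stretches had reads, so the ends of a run and the ends of an amplicon cannot be told apart.

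In the median, edited sites were spaced more widely than listed ones, as a part of a list mostly is. Leaving sites out joins gaps, so the gap also depends on how many sites a group edited. Of 49 genes with at least 2 edited sites in treated wild-type cells, the median gap was wider among the edited sites in 44, narrower in 4 (2610002M06Rik, Cdh22, Mgat4a and Nt5dc3) and equal in 1. In treated wild-type cells neighbouring edited sites of a gene lay a median of 7 bases apart (quartiles 3 and 21, 333 pairs), and within a run 6.5. In treated ADAR2-null cells the median was 8.5 (290 pairs), in untreated wild-type cells 15 (63 pairs), and in untreated and treated STAT2-null cells 8 and 8.5 (42 and 54 pairs). Directly adjoining pairs made up 18.3% of the neighbouring edited sites in treated wild-type cells, and 31% and 27.8% in untreated and treated STAT2-null cells. Of the 395 edited sites, 289 (73.2%) had another edited site within 10 bases, against 622 of the 3048 others (20.4%). Only 17 edited sites (4.3%) had no other edited site in their run, against 1069 of the 3048 others (35.1%). The contrast within 10 bases thus also carries the runs without any edited site.

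In treated wild-type and ADAR2-null cells the share of edited partners was highest at 1 base and lowest at 101 to 200 bases. Beside a site edited in treated wild-type cells, another listed site of the gene was edited in 54.5% of cases at 1 base, 30.6% at 2 bases, 37% at 3 to 5, 30.2% at 6 to 10, 25.2% at 11 to 20, 25.6% at 21 to 50, 18.4% at 51 to 100 and 16.3% at 101 to 200 bases. Over all sites of the pairs in these classes, 10.1% to 15.5% were edited. Treated ADAR2-null cells gave 49% at 1 base, 33.5% at 2, 32.3% at 3 to 5 and 18.2% at 101 to 200. The order was not smooth, with a lower share at 2 bases than at 3 to 5 in wild-type cells and not in ADAR2-null cells. The groups with fewer edited sites had a high share at 1 base too, at 40.7% in untreated wild-type cells and 60.5% and 57.7% in untreated and treated STAT2-null cells, but no steady fall. In untreated wild-type cells the share was 4.66% at 21 to 50 bases and 9.86% at 51 to 100. In STAT2-null cells it was 3.85% untreated and 6.64% treated at 21 to 50 bases and 14.4% in both at 51 to 100. Near sites share reads and genes differ in their share edited, so these figures describe the pairs and were not tested.

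**Figure D3:**
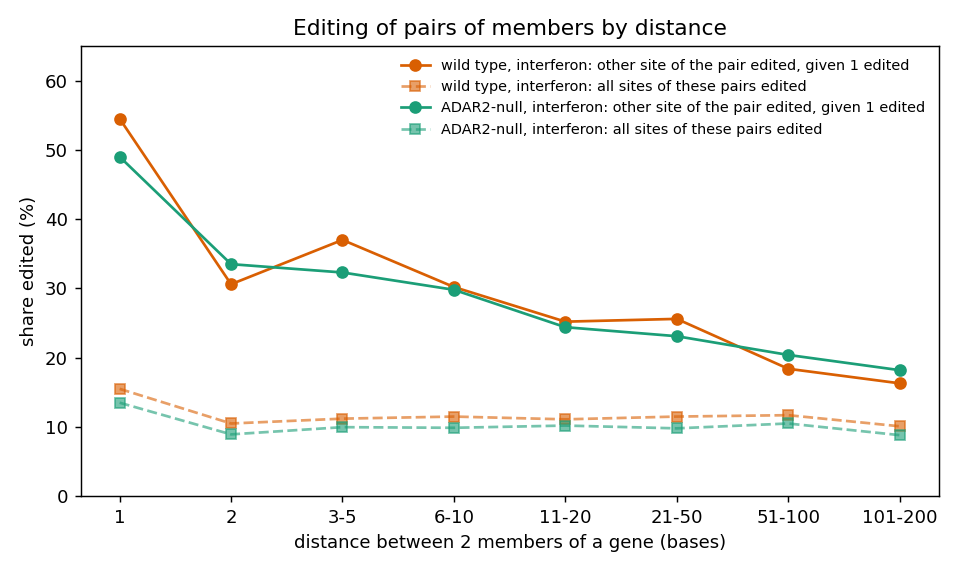
Share of listed sites that were edited (%) by their distance in bases from an edited site of the same gene (solid lines), for treated wild-type and ADAR2-null cells, beside the share edited over all sites of those pairs (dashed lines). In wild-type cells the share is 54.5% at 1 base and 16.3% at 101 to 200 bases.

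The counts at directly adjoining sites differed by side in treated wild-type and ADAR2-null cells, which was not tested. Among the 724 listed sites with a listed site directly on their 5′ side, 129 (17.8%) were edited in treated wild-type cells, against 266 of 2719 (9.78%) without one. For a listed site directly on the 3′ side the figures were 95 of 724 (13.1%) and 300 of 2719 (11%). In the 724 adjoining pairs both sites were edited in 61, only the 3′ one in 68 and only the 5′ one in 34. Treated ADAR2-null cells gave 48, 60 and 40. Untreated wild-type cells and both STAT2-null groups were also counted, and there the sides had similar but small counts. Only the 3′ site was edited in 17 and only the 5′ one in 15 pairs of untreated wild-type cells. The counts were 9 and 8 in untreated and 11 and 11 in treated STAT2-null cells. Pairs were not counted in the remaining groups. The 3′ site was higher than the 5′ one in both treated wild-type libraries in 84 pairs, in 37 genes, and lower in both in 66 pairs, in 33 genes, among 163 pairs with an edited site. By level the 2 sides were thus closer than by count.

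In 22 genes the listed sites fell into more than 1 run. In 13 of them every run had an edited site in treated wild-type cells, in 7 only some runs did, and in 2, Commd2 and Rsad1, none did. Ovca2 had 7 edited sites of 31 in 1 run and 0 of 18 in the other. In Ncl the 4 runs, in order of position, had 0 of 7, 4 of 51, 7 of 31 and 0 of 23. Ccdc157 had 0 of 24 and 6 of 48. In Mad2l1 both runs were edited, at 16 of 44 and 8 of 18. A run without an edited site could therefore lie in the same gene as a run with several.

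**Figure D4:**
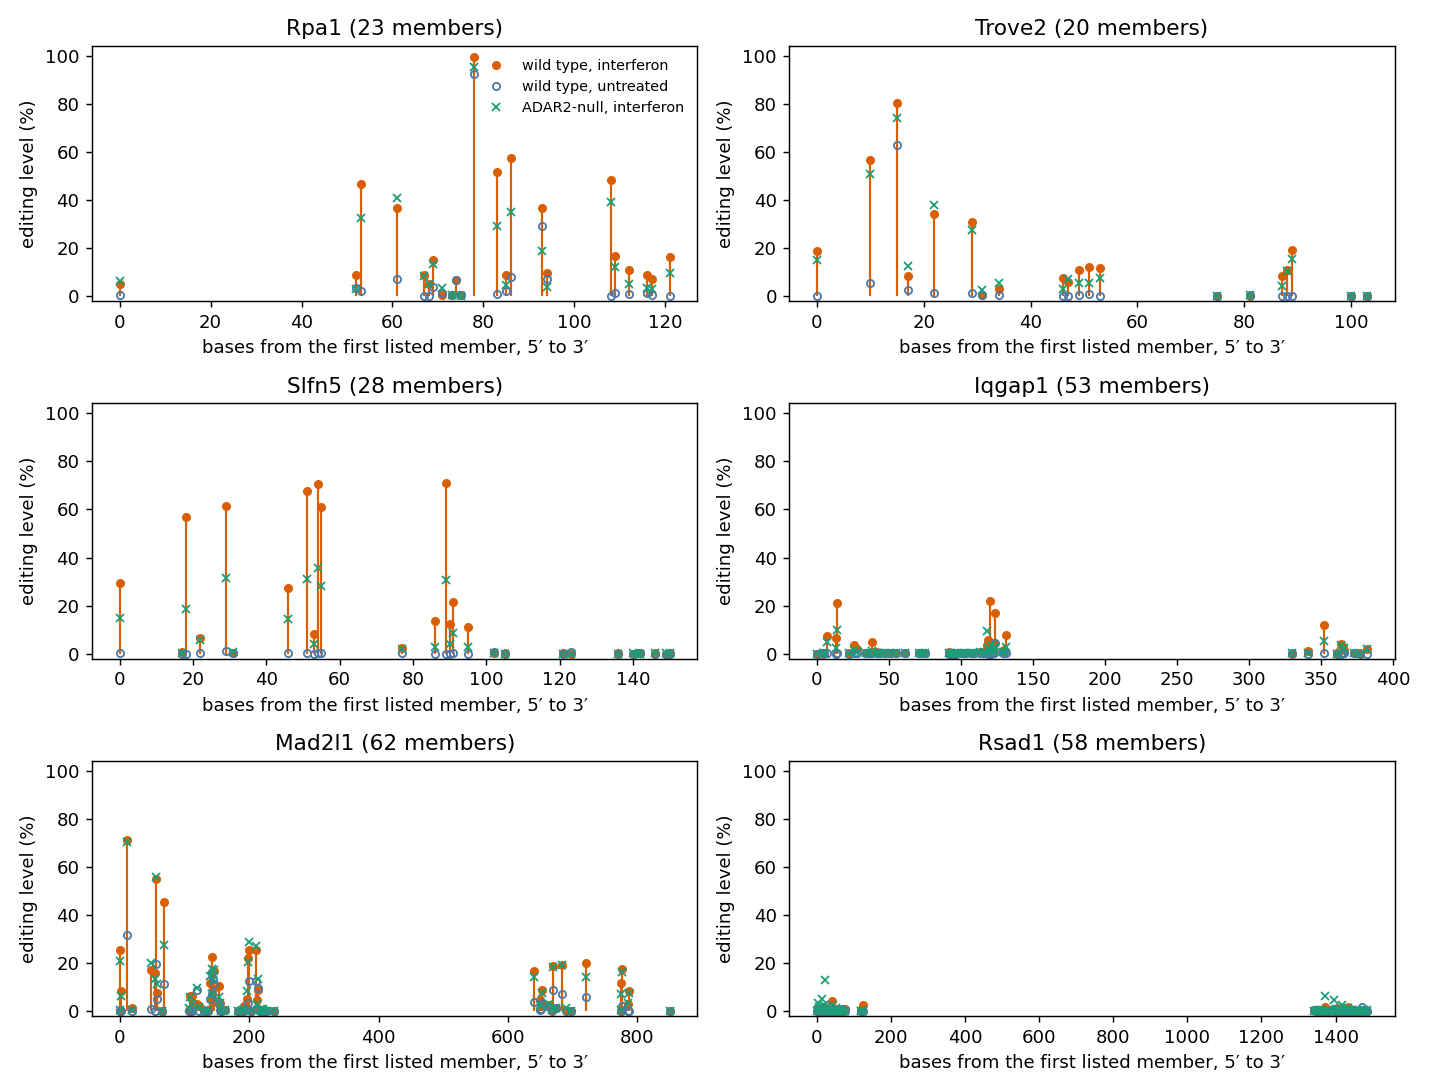
Editing level (%) of every listed site of Rpa1, Trove2, Slfn5, Iqgap1, Mad2l1 and Rsad1 against the distance in bases from the first listed site, 5′ to 3′ (filled points, treated wild type; open points, untreated wild type; crosses, treated ADAR2-null; each a mean of 2 libraries). In Slfn5 the edited sites of treated wild-type cells all lie in the first 96 bases, with some near 0 among them, and in Rsad1 no site of treated wild-type cells is edited.

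In wild-type cells editing was higher after interferon at many of these sites. The test took sites with 50 reads or more in all libraries of the 2 groups and a mean level there of 1% or more. A site was called at an edgeR adjusted p under 0.05 over all tested sites of the tables. Of 841 of the sites tested, 363 rose and 7 fell, in 62 genes. That is 370 calls of 841. Among all listed sites that were tested 41.0% were called, 40.4% as rises and 0.654% as falls. The remaining 2602 sites missed the level filter. The filter reads the treated libraries too, so a site that is edited only after interferon can enter through them. The median difference was 6.07 points over the tested 3′ UTR sites and 5.27 points over all tested sites. The most calls of a rise were in Gnl3l, with 19 of 31 listed sites, and Slc35e2, a solute carrier family gene, with 19 of 54. Mad2l1 followed with 18 of 62, and Iqgap1, which encodes an actin-binding scaffold protein, with 18 of 53. These counts are out of all listed sites of a gene, tested or not, and are not shares of tested sites.

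Of the genes with the greatest rises in wild-type cells, 2900026A02Rik came first. Its site at 113516516 on chromosome 5 stood at 2.27% and 5.02% untreated and at 82.9% and 86.8% treated, a rise of 81.2 points (SE 2.42, n = 2 libraries each, edgeR adjusted p = 0.000196). The Slfn5 site at 82776157 rose by 70.9 points (SE 4.79, edgeR adjusted p = 0.000252). In Mlh3, a mismatch-repair gene, the site at 86576054 on chromosome 12 went from 8.59% and 2.77% to 83.1% and 68.6% (edgeR adjusted p = 0.000699). Gla had a rise of 69.8 points at 131123831 on chromosome X, from 3.88% and 0% to 74.2% and 69.4% (edgeR adjusted p = 0.0019). In Sdf4, which encodes a calcium-binding protein of the Golgi lumen, the site at 155384775 on chromosome 4 went from 0.498% and 0.743% to 72.4% and 62.5% (edgeR adjusted p = 0.000198). In each of these the groups were far apart. Coq3, a methyltransferase gene of ubiquinone synthesis, showed how far replicates could differ. Its site at 21838456 on chromosome 4 had no edited read in 677 untreated reads, which allows up to 0.443%, and stood at 36.7% and 90.7% in the treated libraries (edgeR adjusted p = 0.000407).

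Of the 6 genes named for a fall in wild-type cells, uc009bto.2 kept its call in every alternative analysis. Its site at 47897588 on chromosome 6 fell from 15% and 15.8% to 0% and 0.377%, by 15.2 points (SE 0.409, edgeR adjusted p = 0.00178). The groups did not come near each other at this site. However, another listed site of uc009bto.2 reached 79.5% in 1 treated wild-type library and was under 1% in the other. Those libraries thus differed strongly within the same 3′ UTR. The 2900026A02Rik site at 113517027 fell from 17.7% and 26.1% to 0.645% and 0.599% (edgeR adjusted p = 0.013). Without the second untreated wild-type library the edgeR adjusted p was 0.0532. The Mad2l1 site at 66490184 fell from 10.5% and 7.03% to 2.93% and 3.09% (edgeR adjusted p = 0.0313). It lost its call without each of the 4 libraries in turn, with edgeR adjusted p values up to 0.173, without the level minimum (0.227) and with DESeq2 (0.114).

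ADAR2-null cells rose at 437 of 713 tested sites and fell at none, in 56 genes. Among all sites tested 52.3% were called, 52.2% as rises and 0.0873% as falls. Leaving out the second untreated ADAR2-null library gave 253 calls. The Gnl3l site at 147420066 rose by 71.1 points (SE 1.25, edgeR adjusted p = 1.59e-06), and the 2900026A02Rik site at 113516516 rose by 71.8 points, to 64.9% and 79% (edgeR adjusted p = 4.73e-06). The gene with the most calls was Mad2l1, with 28 of 62 listed sites, and Iqgap1 had 15 of 53. Here too the listed sites include ones that were not tested. As in wild-type cells, a site edited only after interferon can enter the test through the treated libraries. Whether the response differs in size from that of wild-type cells was not tested.

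In STAT2-null cells none of 376 tested sites was called, beside 0% of all sites tested. An unadjusted p under 0.05 was found at 8 of these sites, and DESeq2 called 2. Their median difference was 0.38 points, against 0.279 over all tested sites. In ADAR1-null cells none of 69 tested sites was called by edgeR, beside 0% of all tested, with 9 at an unadjusted p under 0.05. DESeq2 called 6. In p150-knockout cells 3 of 142 tested sites were called, all lower after interferon, beside 1.65% of all tested. The greatest fall was in 4933407H18Rik at 33758586 on chromosome 5, at 3.99% and 7.11% untreated and 0% and 0.394% treated (edgeR adjusted p = 0.0318). None of the 3 calls held in every alternative analysis, and without 1 library the count ran from 0 to 29.

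**Figure D5:**
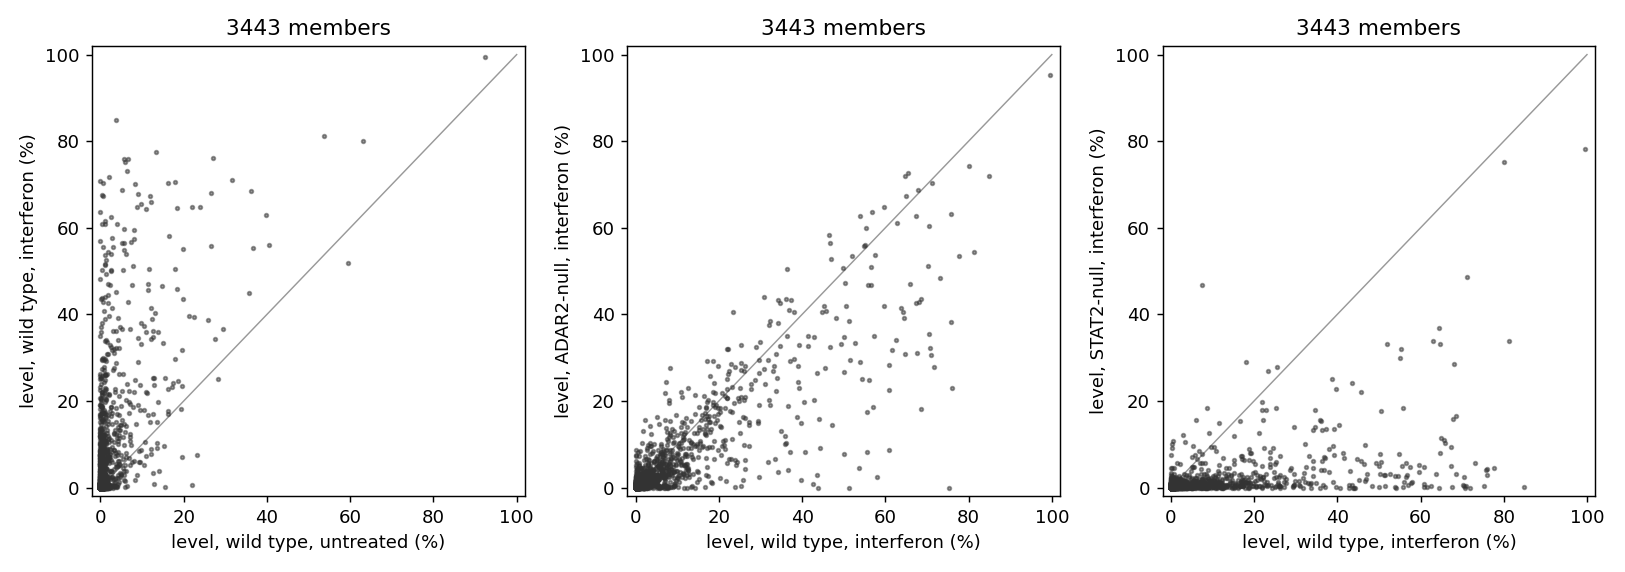
Mean editing level of each of the 3443 sites (%), treated against untreated wild-type cells (left), treated ADAR2-null against treated wild-type cells (middle) and treated STAT2-null against treated wild-type cells (right); the line marks equal levels. Of the 395 sites edited in treated wild-type cells, and so chosen by those levels, 304 had a lower mean in ADAR2-null cells and 388 in STAT2-null cells.

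The sites edited in treated wild-type cells had a median level of 0.329% in treated p150-knockout and 0.225% in treated ADAR1-null cells. They were chosen by their treated wild-type levels. Of those covered, 3 of 344 were edited in treated p150-knockout cells and 1 of 392 in treated ADAR1-null cells. Treated ADAR1-null cells were lower than treated wild-type cells at 584 of 791 tested sites and higher at 0, beside 69.5% called among all sites tested. Treated p150-knockout cells were lower at 498 of 744 and higher at 4, beside 64.5% of all tested, 63.9% lower and 0.577% higher. The site of Gla at 131123090 stood at 76.3% and 78.8% in treated wild-type cells, at 0.22% and 0.372% in ADAR1-null cells (edgeR adjusted p = 5.11e-08) and at 0.355% and 0.982% in p150-knockout cells (edgeR adjusted p = 8.1e-08). The 2900026A02Rik site at 113516516 stood at 0.421% and 0.177% in ADAR1-null cells and at 0.147% and 0.157% in p150-knockout cells. Both knockouts were compared with the same wild-type libraries. The level filter reads those libraries too, so a site near 0 in a knockout line can enter only through them. That favours calls of a lower level, here and in the other comparisons with wild type.

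Untreated, the same lines were lower at fewer sites. ADAR1-null cells were lower than wild-type cells at 149 of 288 tested sites and higher at 1, beside 49.2% called among all tested, 49% lower and 0.259% higher. The p150-knockout cells were lower at 133 of 351 and higher at 2, beside 33.1%, 32.5% lower and 0.580% higher. Here too the level filter favours calls of a lower level. Leaving out 1 untreated ADAR1-null library, the first, gave 94 calls. Leaving out the first or the second untreated p150-knockout library gave 52 or 54. In Cds2, a CDP-diacylglycerol synthase gene of phospholipid synthesis, the site at 132135616 on chromosome 2 stood at 59.6% and 59.3% in wild-type cells. It stood at 0% and 0.144% in ADAR1-null cells (edgeR adjusted p = 3.99e-05) and at 0.414% and 1.16% in p150-knockout cells (edgeR adjusted p = 0.000626). These calls held in every alternative analysis.

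A few sites kept an edited level in these lines. The Rpa1 site at 75114517 stood at 50% and 40.7% in untreated and at 37.1% and 36.4% in treated ADAR1-null cells. In p150-knockout cells it stood at 58% and 51.6% untreated and at 31.9% and 52.2% treated. It was the only site called edited in treated ADAR1-null cells. Its decrease from wild type was called in untreated ADAR1-null cells (47 points lower in the mean, edgeR adjusted p = 0.0017), a call that DESeq2 did not give, with an adjusted p of 0.0887. The Mad2l1 site at 66490208 was the other edited site of untreated ADAR1-null cells, at 8.4% and 6.47%. In p150-knockout cells the edited sites after interferon were those of Rpa1, of Mdc1, which encodes a mediator of the DNA damage checkpoint, of Nt5dc3 and of 9930104L06Rik. The Mdc1 site at 35994679 on chromosome 17 stood at 5.57% and 11.9%, and the Nt5dc3 site at 86300002 on chromosome 10 at 17.1% and 6.08%. In ADAR1-null cells the Mdc1 site lay at or below 0.735% and the Nt5dc3 site at or below 4.3%.

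Few differences between treated ADAR2-null and treated wild-type cells were called. Of 914 tested sites 15 were called lower and 2 higher, in 9 genes. Among all sites tested 2.0% were called, 1.56% lower and 0.445% higher. An unadjusted edgeR p under 0.05 was found at 120 of the 914 sites. The median difference was 1.85 points lower, against 1.88 lower over all tested sites. At the 395 sites edited in treated wild-type cells, the ADAR2-null levels were lower than the wild-type ones without overlap at 208 and higher without overlap at 31, and the median difference was 4.61 points lower. These sites were chosen by their treated wild-type levels, which favours lower values in any other group, so the figures are a description and leave out the 63 sites edited in treated ADAR2-null and not in treated wild-type cells. The count of calls depended on single libraries. It was 57 without the first treated wild-type library, and 1 or 2 without the first or the second treated ADAR2-null library. Without the level filter it was 38, and with DESeq2 56.

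Iqgap1 had 3 of 20 tested sites lower. Its site at 87857170 on chromosome 7 stood at 22% and 21.6% in treated wild-type cells and at 1.68% and 1.5% in treated ADAR2-null cells, 20.2 points lower (SE 0.216, edgeR adjusted p = 0.000209). This call held in every alternative analysis, with edgeR adjusted p values up to 0.0141. The site at 87857276 of the same gene was not called and stood at 23% and 19.6% in wild-type and at 9.84% and 9.77% in ADAR2-null cells. Sites of 1 amplified 3′ UTR thus had unlike ratios between the lines.

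Cdh22, a cadherin gene, had 4 of 7 tested sites lower. Its site at 164937353 on chromosome 2 stood at 72% and 78.6% in treated wild-type cells. It had no edited read in 451 reads of treated ADAR2-null cells, which allows up to 0.665% (75.3 points lower, SE 3.27, edgeR adjusted p = 0.00365). Without the first or the second treated ADAR2-null library the edgeR adjusted p was 0.0631 or 0.0715, with the same levels. In STAT2-null cells the site stood at 0% and 0.775% after interferon. Of the 36 sites of Cdh22, 4 were edited in treated wild-type cells and 0 in untreated wild-type, treated ADAR2-null, treated ADAR1-null and both STAT2-null groups, and the remaining groups lacked the depth. Rragd had 2 of 9 tested sites lower, of which the site at 33107481 on chromosome 4 stood at 41% and 46% against 2.58% and 3.2% (edgeR adjusted p = 0.0477, up to 0.276 without 1 library). The call was also lost with a replicate block (edgeR adjusted p = 0.0516) and with the crossed block (0.0594). Nt5dc3 had 2 of 15 lower. Its site at 86300032 on chromosome 10 stood at 51.6% and 64.5% against 2.38% and 2.68% (edgeR adjusted p = 0.0395, up to 0.183 without 1 library). In Mgat4a, an N-glycan branching glycosyltransferase gene, the site at 37500000 on chromosome 1 stood at 20.5% and 27.1% against 0% and 0.216% (edgeR adjusted p = 0.0174, up to 0.157). Lsm11, whose product takes part in histone RNA processing, and Gla had 1 lower site each.

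Untreated ADAR2-null cells were lower than wild-type cells at 57 of 389 tested sites and higher at 2, beside 13.6% called among all tested, 12.9% lower and 0.680% higher. Leaving out the second library of the untreated ADAR2-null group gave 3 calls. Leaving out its first library, or the second untreated wild-type library, gave 22. The Rpa1 site at 75114517 stood at 36.4% and 44.6%, against 93.9% and 90.8% in wild-type cells (edgeR adjusted p = 0.0141), with 0.0594 and 0.0537 when the first and the second untreated library of the ADAR2-null line were left out, 0.0607 without the level minimum and 0.0715 with DESeq2. After interferon it stood at 94.1% and 96.3% in ADAR2-null cells. The Cds2 site at 132135616 stood at 12.6% and 1.6% (edgeR adjusted p = 0.0181, 0.145 when the second library of that group was left out and 0.0656 without the second untreated wild-type library). None of the 7 sites named in this comparison held in every alternative analysis.

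Treated STAT2-null cells were lower than treated wild-type cells at 360 of 824 tested sites and higher at 11, in 60 genes, beside 40.9% called among all tested, 39.8% lower and 1.15% higher. Without the first or the second treated STAT2-null library the count was 193 or 203. Sites edited only in wild-type cells can enter this test through the wild-type libraries, which favours lower calls. Of the listed sites, 15 of 28 were called lower in Slfn5, 18 of 53 in Iqgap1 and 19 of 31 in Gnl3l. Listed sites that were not tested are included in these totals, so they are not shares of tested sites. In Mad2l1 13 were lower and 2 higher. The site of uc009bto.2 at 47897588 was higher in STAT2-null cells, at 9.16% and 9.33% against 0% and 0.377% (edgeR adjusted p = 0.00417), and this held in every alternative analysis. The treated wild-type libraries differed strongly at another site of this gene, as given above. Untreated STAT2-null cells differed at 12 of 433 tested sites, 6 each way, beside 2.95% of all tested, 1.71% lower and 1.24% higher. No call was left without the second untreated wild-type library or without the first untreated STAT2-null library, and 1 without the other one. The 2900026A02Rik site at 113516847 stood at 32.5% and 48.7% in untreated wild-type cells and had no edited read in 548 reads of untreated STAT2-null cells, which allows up to 0.547% (edgeR adjusted p = 0.0166, up to 0.167 without 1 library).

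Libraries of a group differed by more than read counting allows, with chi-square values of 2.32 to 16.5 per degree of freedom. In treated wild-type cells 632 sites reached 5% in either library, and 119 of these (18.8%), in 51 genes, were under 1% in the other. In untreated wild-type cells this was 55 of 227 (24.2%), in treated ADAR2-null cells 31 of 483 (6.42%), and in treated p150-knockout cells 36 of 52 (69.2%). An example is the site of uc009bto.2 at 47897595, which stood at 0% and 79.5% in the treated wild-type libraries. The rule that both libraries reach 5% leaves such sites out. It left out 237 sites in treated and 125 in untreated wild-type cells that reached 5% in 1 library only.

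At the edges of the rule, the 4 genes with exactly 20 sites had 21 of 80 edited in treated wild-type cells, and the 5 genes with 19 had 8 of 95. Of 124 sites whose lowest wild-type coverage was 50 to 59 reads, 8 were edited. Of 56 sites of the same genes with 40 to 49 reads, 2 reached 5% in both libraries. Of the 93 gene names, 71 are current RefSeq symbols, 7 are synonyms of 1 symbol and 15 are UCSC transcript identifiers, which were kept as the tables give them.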

How the data were processed

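Editing was read in amplicons of 557 loci from reverse-transcribed total RNA, pooled and indexed with 15 cycles of PCR, per the labels' protocols. Reads were aligned to mm9 with BWA and handled with SAMtools, per the submitters' processing notes; their versions and the read filters are not stated there. The authors deposited for each library the coverage and the edited reads of each site as a count, per the file headers, and the editing level as a fraction, which equals edited reads over coverage within 0.0005 and was recomputed. Whether positions count from 0 or 1 is not stated, and no sequence was used. Total coverage was 4389326 to 5559674 reads per library.

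Edited and unedited counts of all listed sites were fitted with edgeR 4.0.16 (R 4.3.3; modelMatrixMeth, glmQLFit, glmQLFTest, two-sided), 1 coefficient per group, all 20 libraries in the fit, with Benjamini-Hochberg adjustment over all sites tested in a comparison, members or not. The alternatives were a replicate block, 100 reads, no level minimum, DESeq2 1.42.0, other edited levels, and each library left out; where that left 1 library in a group, it was assumed to vary like the others. Same-numbered libraries deviated together with correlations of -0.12 to 0.11 over 467 sites. No pairing by number was seen, and none was used in the main fit, but 2 libraries per group cannot exclude one. The members, gene lists and tests were chosen with earlier results of these data known. Genes named are the 12 with most listed sites and the 12 with the highest and 6 with the lowest share edited in treated wild-type cells. Of these 1 gene is not reported here. Sites named are the greatest called differences per gene without overlap of the groups, up to 12 each way for interferon in wild-type cells and 6 elsewhere, and the highest site of genes described at length; neighbouring sites shown beside them were picked after their values were seen. Tables and plots used Python 3.11.15, pandas 2.3.3, numpy 2.4.6 and matplotlib 3.10.9.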

Additional observations from a re-analysis of the deposited data

Results flagged for a closer look

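Only the sites named for a called response to interferon in some line were looked at here, and other listed sites may show the same. At 6 of them the level moved in the opposite direction in another line, by at least 1 point and with no overlap between the untreated and treated libraries of either line. None of these differences between lines was tested. The Bri3bp site at 125936975 on chromosome 5 changed by 58.8 points in wild-type cells (7.15% and 11% untreated, 64.8% and 71% treated) and by -1.28 points in p150-knockout cells (2.44% and 3.06% untreated, 1.38% and 1.56% treated). The uc009bto.2 site at 47897588 on chromosome 6 changed by -15.2 points in wild-type cells and by 8.46 points in ADAR2-null cells (0.272% and 0.258% untreated, 8.35% and 9.09% treated). The Mad2l1 site at 66490184 on chromosome 6 changed by -5.75 points in wild-type cells and by 5.69 points in ADAR2-null cells (4.21% and 3.89% untreated, 9.97% and 9.51% treated).

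The remaining 3 sites were lower after interferon in p150-knockout cells and also, without overlap, in ADAR1-null cells. The uc007nip.2 site changed in ADAR1-null cells by less than the 1 point asked of the flagged changes. In ADAR1-null cells the 4933407H18Rik site stood at 4.04% and 6.08% untreated and at 0.87% and 2.94% treated, the uc007nip.2 site at 0.409% and 0.179% and at 0.16% and 0.156%, and the Mad2l1 site at 3.23% and 3.28% and at 0.959% and 0.989%. The 4933407H18Rik site at 33758586 on chromosome 5 changed by -5.35 points in p150-knockout cells. It changed by 16.8 points in wild-type cells (21% and 23.9% untreated, 34.5% and 44.1% treated) and by 18.9 points in ADAR2-null cells (3.84% and 4.26% untreated, 23.4% and 22.4% treated). The uc007nip.2 site at 34012675 on chromosome 12 changed by -2.82 points in p150-knockout cells (4.05% and 2.25% untreated, 0.332% and 0.328% treated) and by 4.96 points in ADAR2-null cells (4.88% and 5.17% untreated, 10.3% and 9.71% treated). The Mad2l1 site at 66490206 on chromosome 6 changed by -2.6 points in p150-knockout cells (3.41% and 3.15% untreated, 0.707% and 0.64% treated), by 13.9 points in ADAR2-null cells (3.49% and 3.81% untreated, 13.9% and 21.3% treated) and by 1.51 points in STAT2-null cells (16.6% and 16.3% untreated, 17.4% and 18.6% treated).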

How the results depend on the processing

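Of 92 named calls 48 held in every alternative tried, 43 were lost when 1 library was left out, 19 were lost under another setting, and none changed direction. Among the counts of called sites, interferon in ADAR1-null cells went from 0 to 1 at 100 reads, to 1 without a level minimum and to 6 with DESeq2. Interferon in p150-knockout cells went from 3 to 0 without the level minimum and to 0 with DESeq2. Interferon in STAT2-null cells went from 0 to 2, and untreated STAT2-null against wild type from 12 to 32, with DESeq2. Treated ADAR2-null against treated wild type went from 17 to 38 without the level minimum and to 56 with DESeq2. The cause of these changes was not tested. The other counts stayed within 1.5 times under these settings.

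With the replicate block the 5 interferon counts (in the order ADAR1_WT, ADAR1_NULL, P150_KO, ADAR2_NULL and STAT2_NULL) were 368, 0, 3, 443 and 0. The untreated comparisons with wild type (in the same order without the first) gave 150, 132, 46 and 11 and the treated ones 586, 506, 14 and 372, so no count moved by over 1.5 times. A crossed replicate block for treated ADAR2-null against wild type, added after seeing the data, gave 11 calls.

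Leaving out 1 library at a time, the interferon counts ran from 260 to 382, 0 to 3, 0 to 29, 253 to 347 and 0 to 0 in the same order, the untreated ones from 94 to 154, 52 to 116, 3 to 52 and 0 to 11, and the treated ones from 454 to 592, 411 to 506, 1 to 57 and 193 to 414. The share edited in untreated wild-type cells was 2.96% and became 7.06%, 5.17% and 1.68% at edited levels of 1%, 2% and 10%, and 4.62% to 4.94% in 1 library alone. In treated wild-type cells 11.5% became 17.9%, 15.2% and 8.02%, and 14.6% to 15.2% in 1 library. The median gap of 7 bases became 6, 6 and 11 at those levels, 8 at 100 reads, 9 in genes with 30 or more listed sites, and 6 to 7 in 1 library. At 50 reads 1 edited read is a level of 2%, so lower levels are poorly resolved at the least covered sites.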
